A study of Homo sapiens with 33 samples.

Results

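RAG1, RAG2, DNTT, TCL1A, TCL1B, VPREB3, IGLL1 and MME are 8 genes of early B cell development and antigen receptor gene assembly, and they were followed here in a lymphoma cell line given an inhibitor of the Polycomb repressive complex PRC2. They were chosen by name, with earlier results of these data known. Every probe set that the platform annotation assigns to 1 of them alone was used. This gave 13 of the 54613 probe sets tested and 8 of 19775 genes. Karpas422 is a human cell line from a diffuse large B cell lymphoma, which the series title describes as EZH2 mutant. EZH2 is the catalytic subunit of PRC2, and EED226 inhibits the complex by binding its EED subunit. Cells were kept in EED226 at 5 µM for 8 h and for 1, 2, 3 and 6 days (hours in the titles), each set against cells in the solvent DMSO for the same time, and 1 further group was taken at 0 h, whose treatment the labels do not state. The titles name EED226 for every treated array, but the treatment protocol also lists a further compound, EI1, and the design text speaks of an EZH2 inhibitor, so the compound rests on the titles. Each of the 11 groups had 3 arrays, described as biological triplicates. All groups are 1 cell line cultured in serum-containing medium, so the values describe that line and not normal B cell precursors. DMSO day 6 replicate 3 stood apart from its group (r = 0.9869 and 0.986 with the other two arrays, against at least 0.9944 within all other pairs of a group).

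RAG1 and RAG2 together form the recombinase that cuts DNA at the start of V(D)J recombination, and DNTT, the terminal transferase TdT, adds bases at the joints. VPREB3 associates with newly made immunoglobulin chains in precursor B cells, and IGLL1 is the lambda5 component of the surrogate light chain of the pre-B cell receptor. TCL1A and its neighbour TCL1B bind the kinase AKT and raise its activity, and MME is the surface peptidase CD10 of B cell progenitors and germinal-centre B cells. PRC2 places methyl groups on histone H3 lysine 27, and in mammals it is found mostly at silent genes with CpG-rich start regions.

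The start regions of these genes differ widely in CpG content, and 5 of them are shown because they belong to genes that went in opposite directions on day 6. Each is the RefSeq window of 300 bases, 250 before to 50 after the annotated start, on GRCh38.p14, written 5′ to 3′ on the strand of the gene. RAG2 lies at chr11:36598187-36598486 on the minus strand, TCL1A at chr14:95714076-95714375 on the minus strand and TCL1B at chr14:95686176-95686475 on the plus strand. VPREB3 lies at chr22:23754376-23754675 and IGLL1 at chr22:23580241-23580540, both on the minus strand. Capitals mark matches, on either strand, to 5 motifs that were searched: an octamer (ATTTGCAT), an E-box (CAGGTG, which reads CACCTG on the opposite strand), a TATA box (TATAAA), a FOXO motif (TGTTTAC) and an EBF motif (TCCCNNGGGA).
RAG2: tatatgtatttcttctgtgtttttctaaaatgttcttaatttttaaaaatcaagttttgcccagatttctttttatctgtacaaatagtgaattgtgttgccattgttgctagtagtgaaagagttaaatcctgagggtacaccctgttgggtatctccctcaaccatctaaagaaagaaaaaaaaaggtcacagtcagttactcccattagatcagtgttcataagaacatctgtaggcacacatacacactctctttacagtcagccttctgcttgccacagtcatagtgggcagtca
TCL1A: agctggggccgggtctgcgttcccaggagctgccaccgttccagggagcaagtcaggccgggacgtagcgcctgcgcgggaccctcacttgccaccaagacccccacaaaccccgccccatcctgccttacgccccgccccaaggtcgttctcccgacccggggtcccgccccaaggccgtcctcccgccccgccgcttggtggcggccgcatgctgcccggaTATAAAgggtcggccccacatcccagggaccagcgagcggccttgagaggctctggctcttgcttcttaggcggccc
TCL1B: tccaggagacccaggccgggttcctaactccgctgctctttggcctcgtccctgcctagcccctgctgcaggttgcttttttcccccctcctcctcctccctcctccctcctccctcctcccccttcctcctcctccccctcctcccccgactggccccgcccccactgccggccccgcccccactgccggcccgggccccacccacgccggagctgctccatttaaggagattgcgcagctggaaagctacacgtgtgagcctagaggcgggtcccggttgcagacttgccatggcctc
VPREB3: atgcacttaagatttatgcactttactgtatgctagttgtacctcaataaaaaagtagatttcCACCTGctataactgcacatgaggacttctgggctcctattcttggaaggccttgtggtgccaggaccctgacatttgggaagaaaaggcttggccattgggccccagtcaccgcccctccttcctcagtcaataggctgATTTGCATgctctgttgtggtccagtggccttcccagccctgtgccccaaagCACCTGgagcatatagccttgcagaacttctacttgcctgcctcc
IGLL1: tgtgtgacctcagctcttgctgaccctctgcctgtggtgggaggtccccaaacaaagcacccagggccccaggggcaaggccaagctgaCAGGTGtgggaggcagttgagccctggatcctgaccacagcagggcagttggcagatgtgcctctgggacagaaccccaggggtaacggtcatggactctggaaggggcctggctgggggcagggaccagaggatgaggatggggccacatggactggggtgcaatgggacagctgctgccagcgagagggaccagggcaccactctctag

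The RAG2 window held 0 CpG and none of the 5 motifs, whereas the TCL1A window held 26 CpG and a TATA box at base 224. The TCL1B window held 15 CpG and none of the motifs. Of the genes that fell, VPREB3 had 1 CpG, an octamer at base 204 and an E-box at bases 64 and 256, and IGLL1 had 2 CpG and an E-box at base 90. No match in these windows overlapped another. Over all 35116 such windows the median was 14 CpG, and 1.77% held the octamer, 20.6% the E-box, 11.5% the TATA box, 3.42% the FOXO motif and 1.21% the EBF motif. A match describes the letters of the window and is no evidence of binding. RAG1 is not printed because its window, with 32 CpG, lies at the outermost annotated start and shares 180 bases with the window of TRAF6 on the opposite strand. The DNTT window held 3 CpG, and the 4 windows of MME held 19 to 30.

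On day 6 in EED226, 7 of the 8 genes differed from DMSO: RAG1, RAG2, TCL1A, TCL1B and MME were higher, VPREB3 and IGLL1 were lower, and DNTT did not pass. Among the genes above background in both groups, the log2 difference was more than 5 for TCL1A and less than 1 for MME and TCL1B, -1.42 for IGLL1 and -0.77 for VPREB3. RAG1 206591_at and RAG2 lay near background in DMSO, so their differences of 5.10 and 1.52 depend on that floor and are not set against the others. By probe set, 7 of 13 were higher and 2 lower by limma with Benjamini-Hochberg adjustment over all 54613 probe sets at 0.05. EED226 moved a large part of the array at this time, with 20.2% of all probe sets higher and 20.6% lower. By the brightest probe set of each gene, 23.1% of all 19775 genes were higher and 25.5% lower. Without DMSO day 6 replicate 3 the 9 probe sets still passed, RAG1 206591_at at 5.15, RAG2 at 1.41, TCL1A at 5.31 and 5.56, TCL1B at 0.74, VPREB3 at -0.88, IGLL1 at -1.80 and MME at 0.80 and 0.75. In RNA from whole cultures, a larger share of cells expressing a gene and more RNA per cell cannot be told apart.

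The calls accumulated over time. At 8 h no member passed and the share of all probe sets that passed was 0%, although 1289 of all probe sets, and 0 members, had an unadjusted p under 0.05. On day 1 no member passed, against 0.236% of all probe sets, with 3026 probe sets and 2 members at an unadjusted p under 0.05. On day 2 only TCL1A passed, with both probe sets higher, where 3.58% of all probe sets were higher and 0.989% lower; after renewed quantile normalization 65.9% of all calls were higher, against 78.3% as deposited. On day 3 TCL1A, VPREB3 and 1 probe set of MME passed, where 7.32% of all probe sets were higher and 7.13% lower. A joint test over the 5 times called the same 7 genes and 9 probe sets as day 6, against 30.6% of all probe sets.

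**Figure D1:**
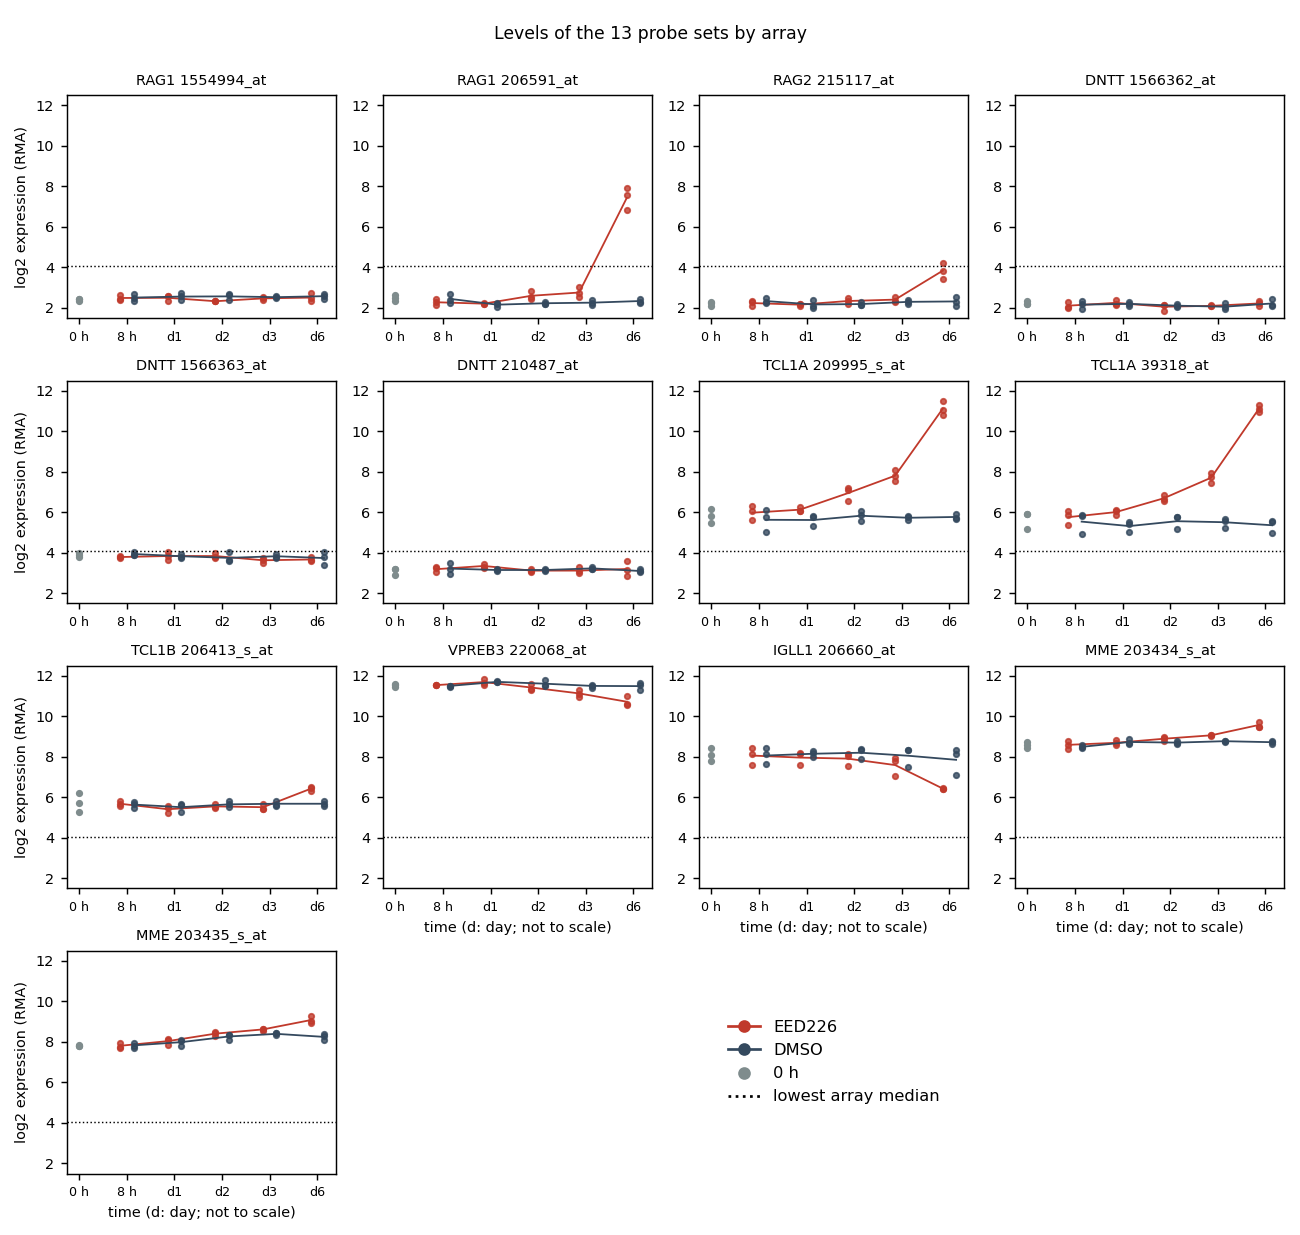
Deposited log2 expression (vertical axis) of each of the 13 probe sets on every array, with time on the horizontal axis (days marked d, even spacing), 1 point per array, lines through group means, EED226 in red left of DMSO in dark blue, and 0 h in grey. The dotted line is the lowest array median, 4.06. TCL1A separates from DMSO by day 2, RAG1 206591_at rises between day 3 and day 6, and RAG1 1554994_at and the 3 DNTT probe sets lie below the line at every group mean.

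Of the recombinase genes, RAG1 was near the floor of the array in all DMSO groups and clearly above it only on day 6 in EED226. A group mean is called dim here when it is below 4.06, the lowest median of any array on the log2 scale. RAG1 206591_at measured 7.91, 7.57 and 6.82 on the EED226 arrays on day 6, against 2.31, 2.26 and 2.44 on the DMSO arrays. Every EED226 array was far above every DMSO array. The difference was 5.10 ± 0.17 on the log2 scale (SE, adjusted p = 6.24e-19). Since the DMSO level is dim, no fold change is given.

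On day 3 the same RAG1 probe set measured 2.52, 3.05 and 2.72 in EED226, against 2.15, 2.40 and 2.24 in DMSO. The groups did not overlap, both means were dim, and the difference of 0.50 ± 0.17 missed the threshold (adjusted p = 0.0525). It passed under several other settings, with adjusted p between 0.0208 and 0.0483. The EED226 effect on day 6 exceeded that on day 3 by 4.6 ± 0.24 (adjusted p = 5.97e-13) and that on day 1 by 5.04 ± 0.24 (adjusted p = 1.06e-14). Over all probe sets, 17.8% passed the first of these tests of a difference and 24.9% the second.

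The second RAG1 probe set, 1554994_at, disagreed. It measured 2.73, 2.47 and 2.34 in EED226 on day 6, against 2.59, 2.43 and 2.71 in DMSO. The arrays overlapped, all 11 group means were dim, and the difference of -0.07 ± 0.11 did not pass (adjusted p = 0.668, 95% interval -0.29 to 0.16). The rise of RAG1 therefore rests on 1 of its 2 probe sets.

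RAG2 has 1 probe set, 215117_at, which measured 4.23, 3.82 and 3.45 in EED226 on day 6, against 2.56, 2.30 and 2.09 in DMSO. No array of one group reached the other. The difference was 1.52 ± 0.14 (adjusted p = 3.71e-10), yet the EED226 mean of 3.84 was still dim, as were the other 10 group means. On day 3 the means were 2.41 in EED226 and 2.30 in DMSO, a difference of 0.10 ± 0.14. As for RAG1, the effect on day 6 was larger than that on day 3, by 1.42 ± 0.20 (adjusted p = 6.08e-06).

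DNTT, the third recombination gene, stayed dim in all 11 groups on its 3 probe sets. The brightest, 1566363_at, measured 3.57, 3.64 and 3.76 in EED226 on day 6, against 3.78, 3.39 and 4.03 in DMSO. The groups overlapped, and the 3 differences on day 6 were 0.00, -0.07 and 0.10, with 95% intervals of -0.23 to 0.23, -0.34 to 0.19 and -0.17 to 0.37. A change of DNTT within those limits was not detectable. At these dim levels the intervals bound the measured signal and may not bound a change in DNTT RNA.

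TCL1A was the first of the 8 genes to pass, on day 2, and both of its probe sets moved together. On day 1, probe set 39318_at measured 6.06, 6.08 and 5.85 in EED226, against 5.49, 5.41 and 5.04 in DMSO. The groups did not overlap, but the difference of 0.68 ± 0.23 did not pass (adjusted p = 0.441), nor did 0.51 ± 0.23 for 209995_s_at (adjusted p = 0.851). Replicate numbers paired the arrays at this time, and with the replicate as a block 39318_at passed (adjusted p = 0.00289) and 209995_s_at did not (adjusted p = 0.228).

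On day 2, probe set 209995_s_at measured 7.19, 7.07 and 6.53 in EED226, against 6.03, 5.86 and 5.56 in DMSO. The difference was 1.11 ± 0.23 (adjusted p = 0.00298), and that of 39318_at was 1.13 ± 0.23 (adjusted p = 0.00234). On day 3, probe set 209995_s_at measured 7.80, 8.10 and 7.52 in EED226, against 5.60, 5.83 and 5.75 in DMSO. The gap had widened to 2.08 ± 0.23 (adjusted p = 1.5e-07) on this probe set and 2.20 ± 0.23 (adjusted p = 4.74e-08) on the other.

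On day 6, probe set 209995_s_at measured 11.51, 11.02 and 10.80 in EED226, against 5.70, 5.89 and 5.68 in DMSO, and 39318_at measured 11.27, 11.09 and 10.95 against 5.51, 5.57 and 4.95. These are differences of 5.35 ± 0.23 (40.9-fold, adjusted p = 1.02e-16) and 5.76 ± 0.23 (54.2-fold, adjusted p = 1.81e-17). TCL1A was above the dim level in all 11 groups, so unlike RAG1 it rose from a measurable level. The effect on day 6 exceeded that on day 3 by 3.27 ± 0.33 and 3.56 ± 0.33 on the 2 probe sets. Replicate 3 was the lowest array for 39318_at in 11 of 11 groups and for 209995_s_at in 10 of 11, a shift between replicates far smaller than the effect on day 6.

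TCL1B, the neighbour of TCL1A, passed only on day 6 and by less than 1. Its probe set 206413_s_at measured 6.50, 6.30 and 6.46 in EED226 on day 6, against 5.80, 5.56 and 5.68 in DMSO. The groups were apart by 0.74 ± 0.15 (adjusted p = 0.000254). On day 3 the difference was -0.17 ± 0.15, and the effect on day 6 exceeded it by 0.92 ± 0.22 (adjusted p = 0.00331; 0.0708 after renewed quantile normalization). The 0 h arrays at 5.26, 6.20 and 5.71 spread more widely than those of any other group.

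**Figure D2:**
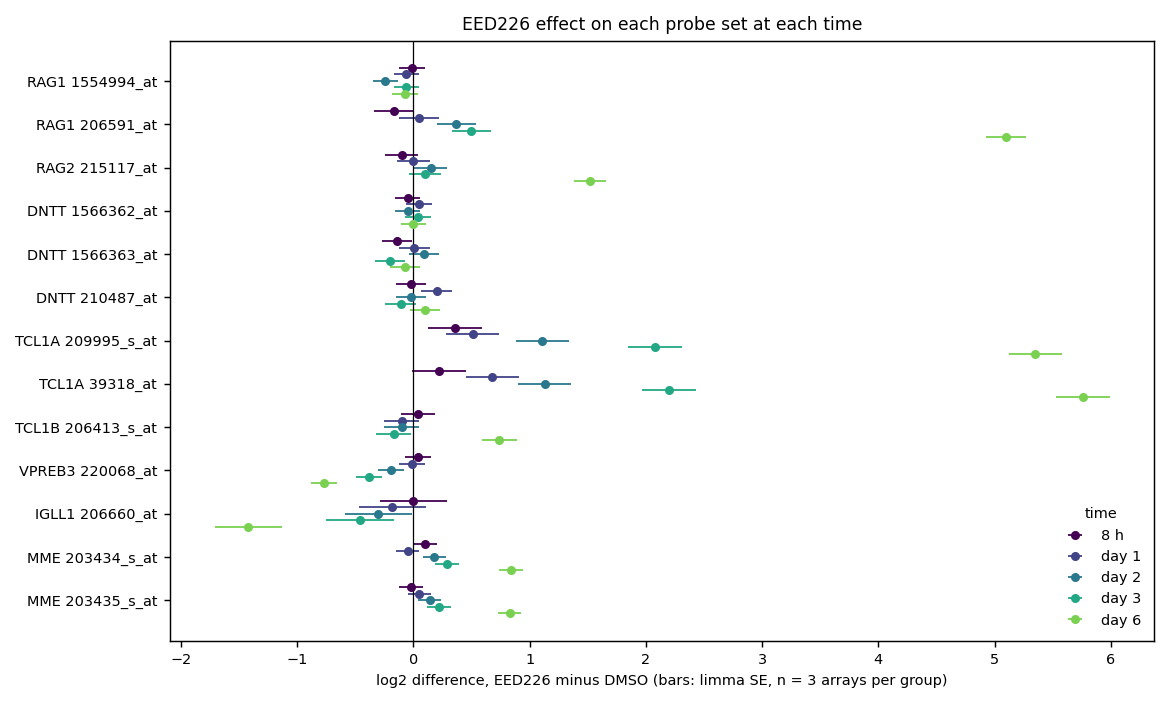
Difference between EED226 and DMSO on the log2 scale (horizontal axis) for each probe set (rows) at 8 h and on days 1, 2, 3 and 6 (colours dark to light), with the standard error of the limma fit as bars and 3 arrays per group. On day 6 the RAG1 206591_at and both TCL1A points lie beyond 5, VPREB3 and IGLL1 lie left of 0, and RAG1 1554994_at stays near 0.

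The genes beside the RAG and TCL1 loci were also read, all by their RefSeq order on GRCh38.p14; IFTAP and the further TCL6 and TRAF6 probe sets were added after values had been seen. Along chromosome 11 the order is PRR5L, TRAF6, RAG1, RAG2 and IFTAP. TRAF6, a ubiquitin ligase of immune receptor signalling, was higher on day 6 on both probe sets, at 7.50 in EED226 and 7.06 in DMSO (0.44 ± 0.11, adjusted p = 0.00199) and at 6.52 and 5.21 (1.32 ± 0.14, adjusted p = 7.1e-09). For the first of these, 205558_at, the difference was 0.18 after renewed quantile normalization and no longer passed (adjusted p = 0.0566), nor did it with only the arrays compared (0.0957) or with a GAPDH control of RNA integrity as a covariate (0.12). PRR5L was lower on 2 of 4 probe sets, where 20.6% of all probe sets were lower, but 3 of the 4 were dim in both groups. Of the 2 lower ones, the dimmer averaged 3.46 in EED226 and 4.04 in DMSO, both dim. The brighter averaged 3.81 in EED226, which is dim, and 4.49 in DMSO. With the GAPDH covariate the brighter no longer passed (adjusted p = 0.0566), and the sizes of both differences depend on the floor. IFTAP was dim in both groups and did not pass (0.15 ± 0.12, adjusted p = 0.317).

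Along chromosome 14 the order is TCL6, TCL1B and TCL1A. TCL6, a non-coding gene of the locus, was higher on day 6 on 4 of its 6 probe sets, by 0.70 to 1.67, and 3 of the 6 were dim in both groups. Over all probe sets, 20.2% were higher. All 4 were dim in DMSO, with means of 2.63 to 3.49, so the sizes of these differences depend on that floor. With the GAPDH covariate 221624_at and 221054_s_at no longer passed (adjusted p = 0.285 and 0.237). The brightest TCL6 probe set on day 6, 239964_at, had means of 5.01 in EED226 and 3.49 in DMSO (1.52 ± 0.14, adjusted p = 6.53e-10). TCL1A, at 5.35 and 5.76, was the last gene read in this order, so its far side was not examined. On chromosome 11 the RAG1 difference started from a dim level in DMSO and is not ranked against its neighbours.

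**Figure D3:**
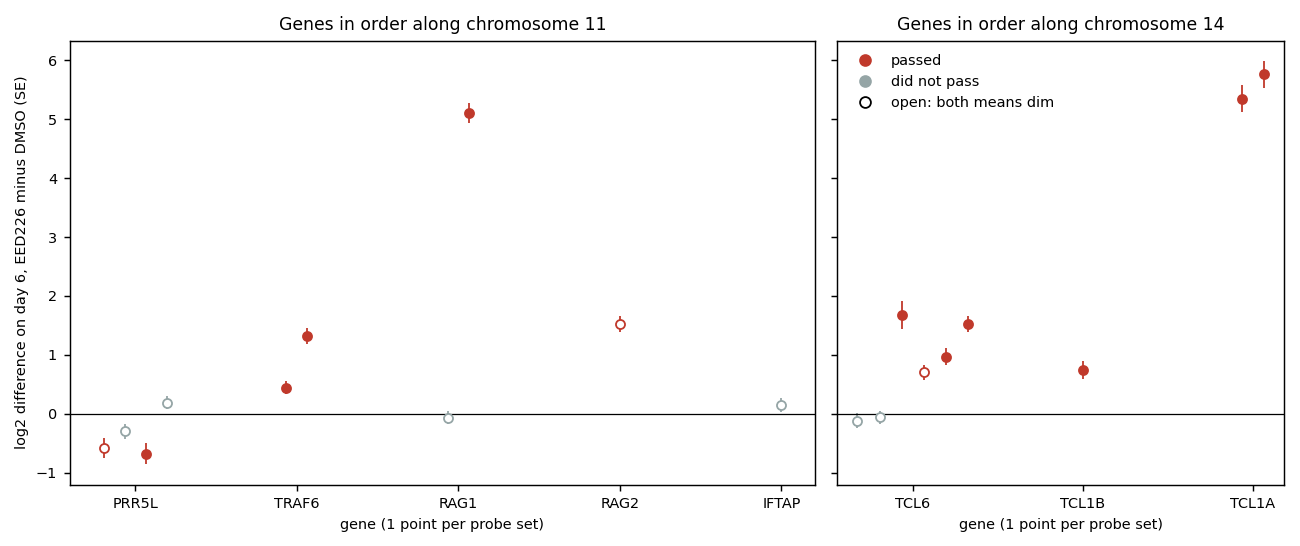
Difference between EED226 and DMSO on day 6 on the log2 scale (vertical axis, bars: limma SE, 3 arrays per group) for each probe set of the genes in their order along chromosomes 11 and 14. Red points passed, grey ones did not, and open ones had dim means in both groups. RAG1 206591_at, dim in DMSO, is at 5.10, TCL1A is at 5.35 and 5.76, and the other points are between -0.68 and 1.67. No gene beyond TCL1A was read.

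VPREB3 and IGLL1 were lower in EED226 on day 6. VPREB3 220068_at measured 10.57, 10.99 and 10.60 in EED226 on day 6, against 11.54, 11.66 and 11.29 in DMSO. Every EED226 array was below every DMSO array, with a difference of -0.77 ± 0.11 (adjusted p = 1.35e-06). On day 3 it measured 11.12, 11.31 and 10.94 in EED226, against 11.52, 11.57 and 11.41 in DMSO. That difference of -0.38 ± 0.11 passed (adjusted p = 0.0191), but the call was lost without DMSO replicate 1 or 2 or without EED226 replicate 1 or 3 of that time (adjusted p = 0.0606, 0.0845, 0.0543 and 0.148), or with only the arrays compared (0.0596). The further fall of the effect between day 3 and day 6 was -0.40 ± 0.16 and missed the threshold (adjusted p = 0.0804), though it passed under several other settings (0.0153 to 0.0456).

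IGLL1 206660_at measured 6.42, 6.45 and 6.41 in EED226 on day 6, against 8.33, 8.12 and 7.09 in DMSO. The EED226 arrays lay close together below all DMSO arrays, of which replicate 3 was well below the other two. The difference was -1.42 ± 0.29 (adjusted p = 0.000189), and on day 3 it was -0.46 ± 0.29 (adjusted p = 0.368). Replicate 3 was the lowest array of IGLL1 in 11 of 11 groups.

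Controls for RNA integrity moved with EED226 on day 3 and day 6. On these arrays the control probe sets at the 3′ and 5′ ends of ACTB differ more when RNA is shorter or labelling less complete. That difference was 3.50, 4.07 and 4.14 on the EED226 arrays on day 6, against 2.87, 3.26 and 3.29 on the DMSO arrays, and for GAPDH it was 0.52 to 0.74 against 0.24 to 0.29. On day 3 it was 3.26 to 3.74 in EED226 against 3.05 to 3.16 in DMSO for ACTB, and 0.30 to 0.44 against 0.23 to 0.24 for GAPDH, again without overlap. On day 2 the groups were apart for GAPDH (0.28 to 0.37 in EED226 against 0.24 to 0.26 in DMSO) and overlapped for ACTB. With the ACTB difference as a covariate, the IGLL1 difference on day 6 was -0.58 ± 0.33 and no longer passed (adjusted p = 0.171). With the GAPDH difference instead, it was -0.54 ± 0.69 (adjusted p = 0.674). Neither control overlapped between the groups on day 6, so these covariates and EED226 cannot be fully told apart there. With the replicate as a block and no covariate, the IGLL1 difference on day 6 was -1.42 ± 0.15 (adjusted p = 7.53e-09). That fit does not account for RNA integrity. Over all probe sets, same-number arrays did not clearly deviate together on day 6 (lowest correlation 0.0683). On day 3 the IGLL1 difference with the ACTB covariate was -0.08 ± 0.26 (adjusted p = 0.906). Of the earlier calls, TCL1A on day 2 (1.19 and 1.20) and day 3 (2.43 and 2.53) and VPREB3 on day 3 (-0.39, adjusted p = 0.0306) still passed with the ACTB covariate. The other 8 probe sets called on day 6 passed with either covariate, RAG1 206591_at at 5.21 and TCL1A at 6.12 and 6.48 with that of ACTB.

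**Figure D4:**
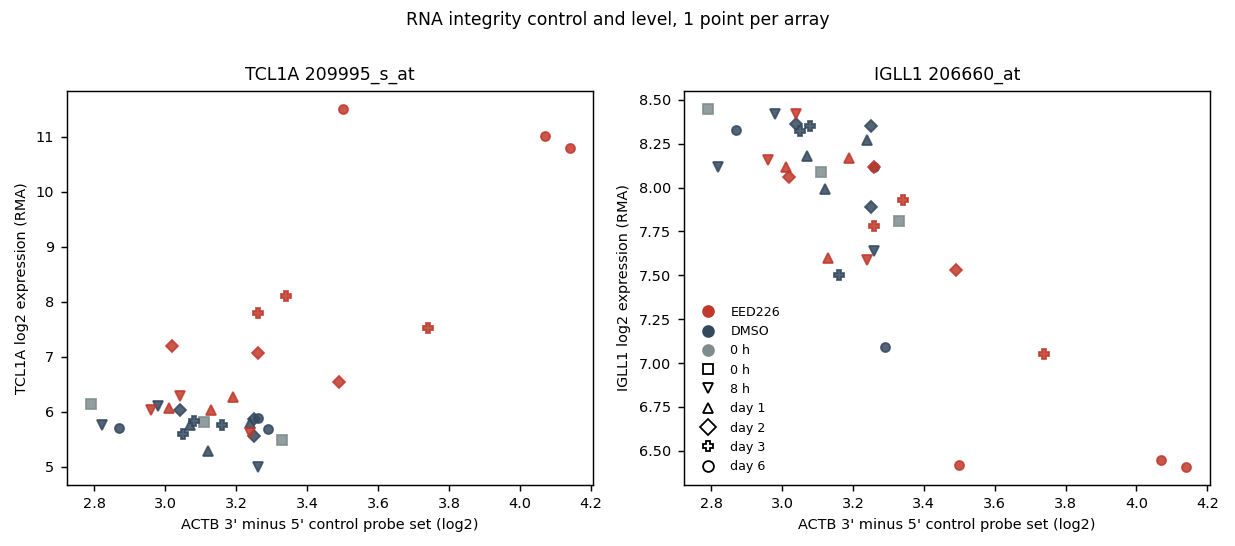
Log2 expression of TCL1A 209995_s_at (left) and IGLL1 206660_at (right) on each of the 33 arrays (vertical axes) against the 3′ minus 5′ ACTB control difference (horizontal axes, log2), with EED226 in red, DMSO in dark blue, 0 h in grey, and the time as the symbol. The lowest IGLL1 values, 6.41 to 6.45, are on the 3 EED226 arrays of day 6 with ACTB differences of 3.50 to 4.14, and DMSO day 6 replicate 3, at 7.09, is the lowest DMSO array.

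IGLL1 shares sequence with lambda constant genes, so probes may not keep them fully apart. Of 24 probe sets assigned to lambda light chain genes, looked up after values had been seen, 4 were higher and 4 lower on day 6. Over all probe sets, 20.2% were higher and 20.6% lower at this time. Without DMSO replicate 3, which stood apart, IGLL3P 215946_x_at (0.32), IGLC1 234851_at (-0.23) and both IGLJ3 probe sets (-0.27 and -0.32) no longer passed. IGLC1 214677_x_at averaged 8.26 in EED226 and 5.08 in DMSO (3.18 ± 0.20, adjusted p = 1.25e-13), the opposite direction to IGLL1. VPREB1, the other component of the surrogate light chain, was dim in both groups, at 2.74 in EED226 and 2.90 in DMSO (adjusted p = 0.265).

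MME rose modestly on both of its probe sets. On day 6, probe set 203434_s_at measured 9.73, 9.49 and 9.48 in EED226, against 8.74, 8.78 and 8.65 in DMSO, and 203435_s_at measured 9.29, 9.02 and 8.92 against 8.37, 8.27 and 8.10. The groups did not overlap on either, with differences of 0.84 ± 0.10 (adjusted p = 3.32e-08) and 0.83 ± 0.10 (adjusted p = 1.62e-07). On day 3 only 203434_s_at passed, at 9.06, 9.02 and 9.09 in EED226 against 8.72, 8.80 and 8.77 in DMSO (0.29 ± 0.10, adjusted p = 0.0416). That call was lost when any of the 6 arrays was left out (adjusted p between 0.0685 and 0.136) and with the ACTB covariate (0.129), and the other probe set differed by 0.22 ± 0.10 (adjusted p = 0.195).

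MME was also the one member that drifted in DMSO. In DMSO on day 6, probe set 203435_s_at measured 8.37, 8.27 and 8.10, against 7.79, 7.85 and 7.80 at 0 h, a difference of 0.44 ± 0.10 (adjusted p = 0.0398), where 0.795% of all probe sets passed. This call was lost without any 1 of the 0 h arrays or DMSO replicate 1 or 2 (adjusted p between 0.0537 and 0.185), and the second MME probe set differed by 0.15 ± 0.10 (adjusted p = 0.545). No other member passed in this comparison.

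Genes that work with these 8 were read by the brightest probe set of each, beside 23.1% of all 19775 genes higher and 25.5% lower on day 6 and a median difference over all genes of -0.11. Of 15 genes of V(D)J cleavage and end joining, 5 were higher and 9 lower, with a median of -0.30. The 14 that passed became 9 with only the arrays compared and 7 with the GAPDH covariate. POLM, a polymerase of end joining, averaged 6.98 in EED226 and 5.65 in DMSO (1.33 ± 0.16), and the damage kinase ATM 10.76 and 9.86 (0.89 ± 0.11). PRKDC, the catalytic subunit of DNA-PK, averaged 9.46 in EED226 and 10.57 in DMSO (-1.11 ± 0.10), and XRCC6, which encodes Ku70, 10.94 and 11.85 (-0.91 ± 0.07). All 4 passed, but ATM did not with the GAPDH covariate (0.51, adjusted p = 0.228). The partners of RAG1 and RAG2 in this list thus changed in both directions.

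Of 17 transcription factors of early B cells, 9 were higher and 2 lower, with a median of 0.20. The 11 that passed became 4 with the GAPDH covariate. BACH2, a repressor of plasma cell genes, averaged 10.06 in EED226 and 5.50 in DMSO (4.57 ± 0.18, adjusted p = 1.89e-17), and FOXO1, an activator of the RAG genes in mouse B cell precursors, 10.02 and 8.31 (1.71 ± 0.09, adjusted p = 1.75e-15). TCF3, an E protein gene, averaged 10.19 in EED226 and 10.57 in DMSO (-0.38 ± 0.06), and IKZF1, or Ikaros, 9.45 and 9.70 (-0.25 ± 0.06), with 2 of the 8 other IKZF1 probe sets going the other way. Neither TCF3 nor IKZF1 passed with the GAPDH covariate (adjusted p = 0.183 and 0.302). IKZF1 also did not pass with only the arrays compared (0.112).

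Of 15 genes of the pre-B cell receptor and cytokine receptors, 5 were higher and 3 lower, and 6 were dim in both groups. The 8 that passed became 4 without DMSO replicate 3, the array that stood apart, 5 with only the arrays compared and 3 with the GAPDH covariate. BANK1, a B cell scaffold protein, averaged 10.39 in EED226 and 9.0 in DMSO (1.39 ± 0.08), and CD79B, a signalling chain of the B cell receptor, 11.40 and 10.32 (1.08 ± 0.09). Among the lower ones were FLT3, a cytokine receptor, at 3.22 in EED226 and 3.69 in DMSO, and JAK3, a kinase of cytokine receptors, at 4.48 and 4.89 (-0.41 ± 0.13), whose mean over its probe sets was 0.29 higher. Without DMSO replicate 3 neither FLT3 (-0.36, adjusted p = 0.0601) nor JAK3 (-0.34, adjusted p = 0.0576) passed.

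Of 12 surface markers of the B lineage, 6 were higher and 2 lower. The 8 that passed became 5 with the GAPDH covariate, which lost the calls of CD27 and CD34 (adjusted p = 0.0701 and 0.094). CD72, an inhibitory receptor, averaged 7.20 in EED226 and 3.70 in DMSO (3.50 ± 0.18, dim in DMSO), and CD38 6.78 and 4.79 (1.98 ± 0.20). CD27, a memory marker, averaged 8.55 in EED226 and 9.14 in DMSO (-0.59 ± 0.08), and CD34, a progenitor marker, 5.49 and 5.80 (-0.31 ± 0.11). The CD34 call was lost without DMSO replicate 3 (-0.18, adjusted p = 0.234), without EED226 replicate 1 or 3 (0.107 and 0.0841), with array weights (0.0914) and with only the arrays compared (0.159). Among the 4 genes of the TCL1 list, besides TCL6 given above, AKT2 was higher at 0.40 ± 0.11, with 4 of its 6 remaining probe sets going the other way, and AKT1 was lower at -0.31 ± 0.10. AKT2 was at 0.22 without DMSO replicate 3 (adjusted p = 0.061) and at 0.01 by the mean of its probe sets (0.926). AKT1 no longer passed without DMSO replicate 1 or 2 or EED226 replicate 1 (adjusted p = 0.0624, 0.0694 and 0.0552) or with the ACTB covariate (0.134), and with only the arrays compared 1 gene of this list passed, against 3.

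Germinal-centre genes went both ways, with 4 of 8 higher and 2 lower. LMO2 averaged 6.44 in EED226 and 5.07 in DMSO, with its second probe set going the other way, and ELL3 averaged 11.89 and 11.02, while SERPINA9 averaged 8.08 in EED226 and 9.0 in DMSO and S1PR2 7.38 and 7.73. S1PR2 no longer passed with only the arrays compared (adjusted p = 0.0623) or with the GAPDH covariate (0.389). Of general B cell markers 3 of 5 were higher, among them CD22, at 9.0 in EED226 and 8.17 in DMSO. Their summed log2 level was 53.0 to 53.9 on the EED226 arrays and 49.6 to 51.5 on the DMSO arrays, and none of the 5 was dim. Of 7 T cell markers 1 passed (2 or 3 under 12 other settings), the lower CD3D at 8.09 in EED226 and 9.04 in DMSO, and their sum was 36.4 to 37.3 against 38.4 to 39.1, with 2 dim. Of 5 myeloid markers, 3 of them dim in both groups, LYZ was higher at 5.50 in EED226 and 3.22 in DMSO, its second probe set going the other way, and ITGAM lower at 3.73 in EED226 and 4.23 in DMSO, with a difference of 0 by the mean of its probe sets, which did not pass. The myeloid sum was 18.1 to 19.1 against 17.2 to 18.0, and whether these marker levels bear on the members was not tested.

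The genes whose pattern over the 11 group means was most like each member's were found by Pearson correlation among 2824 genes with a range of at least 1. These values are descriptive, share their arrays, and rest mostly on the EED226 group on day 6. For RAG1 they were PCDH19 (r = 0.9958) and TPTE2P6 (0.9945), and for RAG2 PCDH19 (0.9931) and TMEM178A (0.9907). PCDH19, a protocadherin, averaged 6.52 in EED226 on day 6 and 3.61 in DMSO. For TCL1A they were MGAT5 (0.9970) and RAMAC (0.9969), which were already higher on day 3, MGAT5 at 9.43 in EED226 and 8.85 in DMSO. For TCL1B they were OGN (0.9740) and ZNF791 (0.9735), for IGLL1 TPCN2 (0.9910) and DNAAF5 (0.9909), and for MME HDHD2 (0.9920) and CSRNP3 (0.9919). The group means of VPREB3 ranged over only 0.97, so no such genes are given for it, nor for DNTT.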

How the data were processed

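Total RNA from 33 cultures was hybridized to Affymetrix 3′ arrays, per the labels' protocols. The deposited table holds log2 values per probe set from the authors, and the submitters' processing notes name RMA, which corrects background, normalizes arrays to 1 distribution and summarizes probes; its version was not given in the sources used here. The array medians were 4.06 to 4.18, and the number of arrays limits the precision. Correlations within groups were at least 0.9944, except those of DMSO day 6 replicate 3 (0.9869 and 0.986), which was kept.

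Of 54675 probe sets, 62 controls were left out. Of the 54613 tested, 41091 had 1 gene symbol in the platform annotation, 1801 several and 11721 none. Groups came from the sample titles; the design text speaks of an EZH2 inhibitor and the treatment protocol also lists EI1, while the titles name EED226. limma 3.58.1 (R 4.3.3) fitted 1 mean per group on all 33 arrays (22 residual degrees of freedom), with eBayes, two-sided tests and Benjamini-Hochberg adjustment over all probe sets at 0.05; it was tested on simulated data. All probe sets of the 8 genes are given; of each other list, the 2 largest rises and the 2 largest falls that passed on day 6 by the brightest probe set; and the 2 likest genes of each member with a range of at least 1. The members and lists were chosen with earlier results of these data known. Same-number arrays deviated together with correlations over 0.1 in every pair at 8 h and on days 1 and 2 (0.141 to 0.373) and not on day 3 (lowest 0.0126) or day 6 (lowest 0.0683); the labels name no shared batch. Alternatives were gene-level summaries, a filter on dim probe sets, centring, renewed quantile normalization, trended eBayes, array weights, fewer arrays, the ACTB covariate, a replicate block and leaving out each array; a GAPDH covariate was added after seeing the data.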

Additional observations from a re-analysis of the deposited data

Results flagged for a closer look

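The EED226 effect differed between day 1 and day 6 for 7 of the 8 genes when the difference of effects was itself tested in the limma fit. Over all probe sets, 24.9% passed that test. For day 3 against day 6, 5 of the genes passed, where 17.8% of all probe sets did. Between day 1 and day 6 the effect on the log2 scale grew by 5.04 for RAG1 206591_at, 1.52 for RAG2, 4.85 and 5.08 for TCL1A 209995_s_at and 39318_at, 0.85 for TCL1B, and 0.89 and 0.78 for MME 203434_s_at and 203435_s_at. It changed by -0.76 for VPREB3 and by -1.24 for IGLL1, the last with adjusted p = 0.0241. That of IGLL1 was -0.36 with the ACTB covariate (adjusted p = 0.579) and -0.33 with the GAPDH covariate (0.857), and neither passed; with the GAPDH covariate that of TCL1B did not pass either (0.0573). Between day 3 and day 6 it grew by 4.6 for RAG1 206591_at, 1.42 for RAG2, 3.27 and 3.56 for the TCL1A probe sets in the same order, 0.92 for TCL1B, and 0.55 and 0.61 for the MME probe sets in the same order. With the GAPDH covariate MME 203434_s_at no longer passed (0.0861). VPREB3 and IGLL1 did not pass this second test (adjusted p = 0.0804 and 0.108). The 2 times share the fit but no arrays.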

How the results depend on the processing

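Of 719 recomputed values of members that passed under some setting, 666 kept their direction and side of the threshold, 33 no longer passed, 20 newly passed and 0 changed sign. On day 6 the count of 7 genes held under all settings but those with the ACTB and GAPDH covariates, which lost IGLL1 (6 genes), and that with only probe sets above the median level, where RAG1 and RAG2 were not tested (5 genes). The listed genes passing on day 1 were 1 with the replicate block, against 0, and in DMSO on day 6 against 0 h they were 0 by the brightest probe set, by the mean of probe sets and with only the arrays compared, against 1. In the joint test 3 genes (RAG1, RAG2 and TCL1A) passed with the GAPDH covariate, against 7. Leaving out 1 array gave 1 to 4 genes on day 3 (3 with all arrays, 1 without DMSO replicate 1 or 2 or EED226 replicate 3) and 0 to 1 in DMSO on day 6 against 0 h. With the replicate block IGLL1 passed on day 3 (adjusted p = 0.0287; 0.906 with the ACTB covariate and no block), and VPREB3 and IGLL1 passed for the effect on day 6 minus that on day 3 (0.0238 and 0.00132); no other member call changed with it besides TCL1A on day 1. Without DMSO day 1 replicate 3, DMSO day 6 replicate 1 or 2, or EED226 day 1 replicate 1 or 2, IGLL1 lost its call for the effect on day 6 minus that on day 1 (adjusted p between 0.0557 and 0.0815). TCL1B lost that call after renewed quantile normalization (0.0814).

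By the brightest probe set the percent of all features passing was 0.87 on day 1, 9.44 on day 2, 22.9 on day 3 and 1.72 in DMSO on day 6 against 0 h; by the mean of probe sets 0.602, 7.5 and 1.21 on day 1, day 2 and in DMSO. Among probe sets above the median level it was 0.721 on day 1, 10.8 on day 2, 30.1 on day 3, 64.2 on day 6, 45.9 and 35.2 for the effect on day 6 minus those on day 1 and day 3, 3.05 in DMSO and 54.5 in the joint test. With only the arrays compared it was 0.123 on day 1, 24.9 on day 6, 9.89 for day 6 minus day 3 and 0.0458 in DMSO. Array weights gave 0.59 on day 1, 8.61 on day 2 and 1.5 in DMSO, trended eBayes 1.37 in DMSO, and the replicate block 0.483 on day 1 and 1.96 in DMSO. The GAPDH covariate, chosen after seeing the data, gave 14.7 on day 6, 10.2 and 7.94 for the 2 differences of effects and 10.4 in the joint test. Without 1 array it ranged from 0.0531 to 0.507 on day 1, 2.95 to 6.15 on day 2 and 0.326 to 2.16 in DMSO. Scaling moved the median of all probe sets by at most 0.02; the share of calls that were higher was 51.1% after renewed quantile normalization for day 6 minus day 3, against 65.1%, and 75.3% after centring in DMSO on day 6 against 0 h, against 53.2%. Of 669 recomputed values of other named genes, 608 kept direction and call, 60 no longer passed and 1, JAK3, reversed, to 0.29 by the mean of its probe sets. Of 170 recomputed counts of list genes passing, 28 moved by over 1.5 times. Where not stated, the cause was not tested. RAG2, DNTT and RAG1 1554994_at in all groups, and RAG1 206591_at in 10 of 11, lie near background, so the sizes of their differences are uncertain.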
